A study of Medicago sativa with 12 samples.

Results

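Alfalfa (Medicago sativa), a perennial forage legume, was sequenced here as leaf RNA from 12 libraries, and the comparison described is that of leaves given salt together with melatonin (SM) against leaves given melatonin alone (M). It asks what salt did to the leaf transcriptome when melatonin was present. The comparison holds 6 of the 12 libraries, 3 of SM and 3 of M, and covers every gene in the table. The other groups, salt alone (S) and untreated control (CK), also with 3 libraries each, entered the same fit and gave the salt effect without melatonin (S vs CK) for reference. Both SM and M leaves had received melatonin, so the comparison carries no untreated baseline of its own. The labels give salt and melatonin as treatments of leaves, with no dose, duration, plant age, or cultivar, and do not say whether a library held 1 plant or several. The 3 libraries of a group are described as biological replicates.

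Salt in the root zone lowers the water available to the plant and brings sodium and chloride into the leaf. Leaves typically respond through abscisic acid (ABA), a hormone that closes stomata and that acts through PYR/PYL receptors, type 2C protein phosphatases, and SnRK2 kinases. They also accumulate compatible solutes such as proline, inositols, and raffinose-family sugars, and detoxify reactive oxygen species (ROS). Melatonin is an indoleamine that plants make from tryptophan and that is often applied to stressed plants as an antioxidant and growth regulator.

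The deposited table lists 164632 gene models on chromosomes that come as 4 copies of each of 8. Reads of near-identical copies may have been split among several gene models, so the estimated counts of all models with the same description were also summed, and each description is called an annotation below. Values are given in FPKM (fragments scaled by transcript length and sequencing depth), summed in the same way. In all, 15402 annotations and 50931 gene models had a mean of at least 1 FPKM and were tested. Changes are log2 fold changes of SM over M from edgeR's quasi-likelihood test, written with the standard error implied by the test. Most descriptions name a protein of Medicago truncatula. An annotation was called changed at a Benjamini-Hochberg adjusted p below 0.05 over all tested.

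The estimated counts summed to between 45862158 and 56298507 in SM libraries and between 51459188 and 55627908 in M libraries. On the scale of 1 minus Pearson's correlation of log2(CPM + 1) over annotations, SM libraries lay 0.0591 to 0.0712 from each other and M libraries 0.0652 to 0.0948. An SM library lay 0.094 to 0.167 from an M library, and M replicate 2 was the most distant. M replicate 1 lay nearest to a CK library, and the nearest library of each SM library was another SM library. Leaf identity was checked with marker lists. Green-leaf search words found 30 tested annotations (proteins worded chlorophyll a-b binding, some photosystem II proteins, carbonic anhydrases, and minor Rubisco small-subunit annotations of 13.9 to 18.7 FPKM in SM leaves and 3.98 to 8.95 FPKM in M leaves) but missed the strongest antenna annotation and the abundant Rubisco small chain, which are worded otherwise. Their summed level was 32277 to 35731 FPKM in SM leaves and 7747 to 29766 FPKM in M leaves, lowest in M replicate 2. Leghemoglobin, which defines nodules, was at 0 FPKM in all 6 libraries for each of its 6 annotations, while nodulin-named annotations, many of them expressed in leaves, summed with the few other root and nodule markers to 1842 to 2395 FPKM in SM leaves and 1717 to 2848 FPKM in M leaves. Dividing-cell markers summed to 1664 to 2087 FPKM in SM leaves and 1747 to 2892 FPKM in M leaves, senescence markers to 197 to 255 FPKM in SM leaves and 203 to 377 FPKM in M leaves, and seed and flower markers to 166 to 202 FPKM in SM leaves and 182 to 409 FPKM in M leaves. M replicates 1 and 2 lay above every SM library for the dividing-cell and the seed and flower lists and M replicate 3 did not, and for senescence M replicate 2 did.

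Salt in the presence of melatonin changed 1076 of the 15402 annotations. In SM leaves, 469 were higher (3.05% of those tested) and 607 lower (3.94%). Photosynthetic genes and proline synthesis genes were among the higher annotations, as were superoxide dismutases, whose calls did not hold whichever library was left out. ABA receptors, immune receptors and kinases, and ethylene response factors were among the lower ones. The median size of the 1076 changes was 1.67 on the log2 scale, and 868 exceeded a factor of 2. The 3 SM and the 3 M libraries did not overlap for 1070 of the 1076, against 4647 of all 15402 tested. An unadjusted p below 0.05 was found for 3617 annotations, and the median log2 fold change over all of them was -0.01. Of the called annotations 223 had a description that names no function. By the thresholds that the study itself used, a factor above 2 or under 0.5 at p under 0.05 without adjustment, the call was made for 2158 annotations (14%). Leaving out any 1 of the 6 libraries lowered the number of calls to between 306 (without SM replicate 1) and 743 (without M replicate 3), with 412 without SM replicate 2, 479 without M replicate 2, 641 without SM replicate 3, and 718 without M replicate 1. The direction of all 1076 was the same in each of these fits, which the separation of SM and M libraries made nearly certain beforehand.

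**Figure D1:**
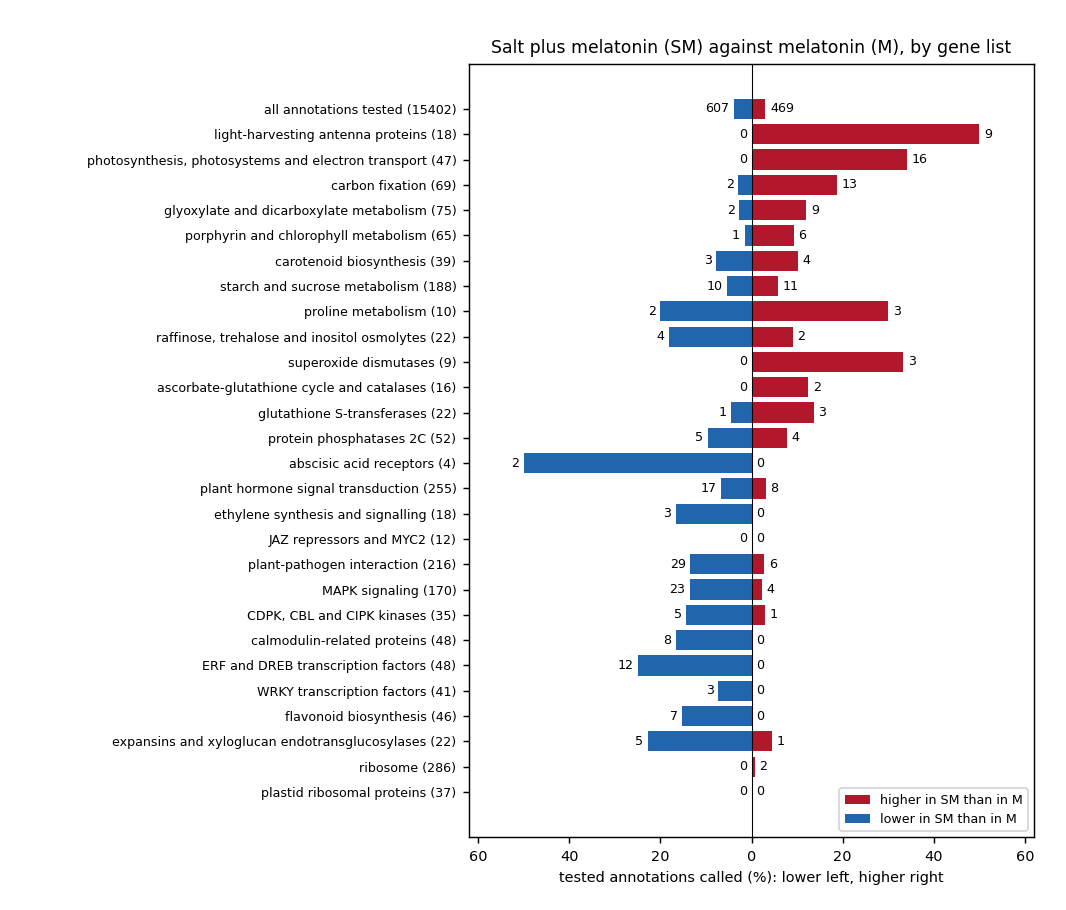
Share of the tested annotations of each gene list that was called higher (red, to the right) or lower (blue, to the left) in SM than in M leaves, in percent, with the count called beside each bar and the annotations tested in brackets. Antenna and photosystem lists reach 50% and 34% on the right with none on the left, against 3.05% higher and 3.94% lower over all annotations in the top bar.

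The difference between a gene model and its annotation matters for single genes, and the oligonucleotides that the study designed for quantitative RT-PCR identify the model it took for each. The 3 pairs shown were chosen after their values were seen, because their gene models and annotation sums gave different calls or carried results described below. All are written 5′ to 3′ in lower case, forward before reverse.
PYL4 forward: tccctccacagagggtgact
PYL4 reverse: gctgtgtaatgttctctgcgg
SCL9 forward: taccacctgattgcacacct
SCL9 reverse: gcgaaaccgggtacttttcg
EBF1 forward: tgtgtgcgatctccgattcc
EBF1 reverse: tagtcccaaaagggtgtggc

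The PYL4 pair belongs to MS.gene052795 (chromosome 4.4, 86285077 to 86285733, plus strand), 1 of 16 models of that annotation, with 0.126, 0.0352 and 0.325 FPKM in SM leaves, against 2.99, 10.4 and 0.776 FPKM in M leaves (log2 fold change -4.63 ± 1.57, adjusted p = 0.236). The summed annotation held far more of the signal and passed (log2 fold change -4.96 ± 0.61, adjusted p = 0.00367). For MS.gene99623 (chromosome 7.1, 39445076 to 39447304, minus strand), a scarecrow-like GRAS protein, the values were 8.21, 6.83 and 8.58 FPKM in SM leaves, against 2.1, 1.73 and 2.22 FPKM in M leaves, which do not overlap, and both the model (log2 fold change 1.97 ± 0.31, adjusted p = 0.046) and the sum (log2 fold change 1.72 ± 0.24, adjusted p = 0.00421) passed. MS.gene015986 (chromosome 1.4, 8539642 to 8541558, minus strand), an F-box protein that targets the ethylene transcription factor EIN3 for breakdown in Arabidopsis, had 8.77, 15.7 and 8.64 FPKM in SM leaves, against 38.1, 59.1 and 37.3 FPKM in M leaves and passed as a single model (log2 fold change -1.99 ± 0.33, adjusted p = 0.0469). The sum over its annotation did not (log2 fold change -1.08, adjusted p = 0.0636). Coordinates are those of the deposited table, whose genome build is not given in the sources used here, and the oligonucleotides were not aligned.

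Among the largest rises of well-expressed annotations with a known description was that of probable protein phosphatase 2C 51, a type 2C protein phosphatase. It had 179.8, 137 and 88.1 FPKM in SM leaves, against 2.06, 2.11 and 0.778 FPKM in M leaves (log2 fold change 6.33 ± 0.73, adjusted p = 0.00332). Its lowest SM value was far above its highest M value. Genes of myo-inositol synthesis and transport rose in the same leaves. Inositol-3-phosphate synthase, which makes the first inositol phosphate from glucose 6-phosphate, had 1059, 348 and 147 FPKM in SM leaves, against 14.9, 25.4 and 8.67 FPKM in M leaves (log2 fold change 5.0 ± 1.09, adjusted p = 0.024). A second annotation of the same enzyme had 409, 78.4 and 37.4 FPKM in SM leaves, against 5.7, 7.45 and 1.33 FPKM in M leaves (log2 fold change 5.21 ± 1.36, adjusted p = 0.0457). Both groups were separated, with a wide spread among the SM libraries, and these calls held in only 2 and 1 of the 6 fits that left out 1 library. Probable inositol transporter 2 had 31.5, 19.2 and 9.69 FPKM in SM leaves, against 0.907, 1.24 and 0.060 FPKM in M leaves (log2 fold change 4.77 ± 0.94, adjusted p = 0.0159) and lost its call without SM replicate 1.

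Embryonic abundant protein USP92, a BURP-domain protein first described in seeds, had 372, 1837 and 456 FPKM in SM leaves, against 52.3, 48 and 8.99 FPKM in M leaves, with SM replicate 2 the highest (log2 fold change 4.69 ± 0.98, adjusted p = 0.0202, kept in 3 of 6 leave-one-out fits). Photosystem II 22 kDa protein (PsbS), the sensor of non-photochemical quenching, had 139.5, 118 and 109 FPKM in SM leaves, against 2.99, 7.34 and 3.28 FPKM in M leaves (log2 fold change 4.73 ± 0.45, adjusted p = 0.00157). The 3 SM libraries were tightly grouped and all M libraries were low. The (R,S)-reticuline 7-O-methyltransferase annotation, named after an alkaloid enzyme of other plants, had 284, 61.6 and 246 FPKM in SM leaves, against 4.82, 3.04 and 11.5 FPKM in M leaves (log2 fold change 4.84 ± 0.81, adjusted p = 0.00931). Apyrase, an enzyme that hydrolyses nucleotides, changed by 4.90 ± 0.93 (adjusted p = 0.0142), and the annotation putative methylecgonone reductase, an aldo-keto reductase, by 4.80 ± 0.86 (adjusted p = 0.012). Both kept their calls in all 6 leave-one-out fits. Dehydrodolichyl diphosphate synthase 2 (log2 fold change 6.58 ± 1.48, adjusted p = 0.0271) and REVEILLE 1, a morning-phased MYB protein of the clock output (log2 fold change 4.60 ± 1.07, adjusted p = 0.0302), also rose, but their calls held in 1 and 2 of those 6 fits.

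The falls included peamaclein, a cysteine-rich peptide of the gibberellin-regulated (GASA/snakin) family. Peamaclein had a summed level of 8.78, 6.72 and 6.14 FPKM in SM leaves, against 1562, 2087 and 1109.9 FPKM in M leaves (log2 fold change -7.77 ± 0.66, adjusted p = 6.59e-04). In S leaves it stood at 422, 72.4 and 256 FPKM and in CK leaves at 1349, 2575 and 2482 FPKM, so the S over CK value was -3.13. The difference between the salt effects was -4.64 ± 0.73, adjusted p = 0.235 and did not pass. Gibberellin 2-beta-dioxygenase 2, which inactivates gibberellins, had no count in the 3 SM libraries and 10.7, 53.1 and 4.55 FPKM in M leaves, at least 476-fold lower in SM against a floor of 3 counts per library (adjusted p = 0.0145). This call was lost without SM replicate 1. The C4-dicarboxylate transporter/malic acid protein, of the protein family of the SLAC1 anion channels, was likewise at 0 in SM leaves and at 16.4, 7.97 and 13.3 FPKM in M leaves, at least 209-fold lower (adjusted p = 0.0268). Heavy metal-associated isoprenylated plant protein 7 isoform X2 was at 0 in SM leaves and at 4.84, 1.01 and 15.4 FPKM in M leaves, at least 128-fold lower (adjusted p = 0.0324). The calls of these 2 annotations held in 1 of 6 leave-one-out fits each.

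Cell number regulator 9 had 0, 0 and 0.874 FPKM in SM leaves, against 90.3, 172 and 32.9 FPKM in M leaves, with SM replicate 3 the single SM library above 0 (log2 fold change -7.12 ± 1.41, adjusted p = 0.0164). The ethylene-responsive transcription factor ERF026 had 1.3, 0.899 and 1.82 FPKM in SM leaves, against 143, 220.0 and 50 FPKM in M leaves (log2 fold change -6.45 ± 1.09, adjusted p = 0.00959). Dehydration-responsive element-binding protein 1f-like, of the CBF/DREB1 group, had 0, 0.154 and 0 FPKM in SM leaves, against 16, 22.7 and 6.11 FPKM in M leaves, and no more than 6 counts in any SM library (log2 fold change -8.11 ± 1.73, adjusted p = 0.0213, kept in 3 of 6 leave-one-out fits). All 3 were readily detected in M leaves and close to 0 in SM leaves. Ribonuclease 1 had 0.76 ± 0.51 FPKM in SM leaves and 45.9 ± 37 FPKM in M leaves (SD, n = 3 each; adjusted p = 0.0182, lost without SM replicate 1 and without SM replicate 2). Chalcone synthase 4 (0, 0.211 and 0.0624 FPKM in SM leaves, against 0.253, 27.2 and 30.9 FPKM in M leaves), an enzyme of flavonoid synthesis, and vestitone reductase (0.262, 1.13 and 0.952 FPKM in SM leaves, against 9.51, 95.1 and 21.9 FPKM in M leaves), of pterocarpan synthesis, also fell. So did the annotation putative U1 small nuclear ribonucleoprotein of 70kDa (0, 0 and 0.203 FPKM in SM leaves, against 20, 17.8 and 1.69 FPKM in M leaves) and xyloglucan endotransglucosylase/hydrolase protein 9 (0.0401, 0 and 0 FPKM in SM leaves, against 16.3, 24.8 and 2.22 FPKM in M leaves). The adjusted p of these 4 lay between 0.031 and 0.0335, and each call held in 1 or 2 of the 6 leave-one-out fits.

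**Figure D2:**
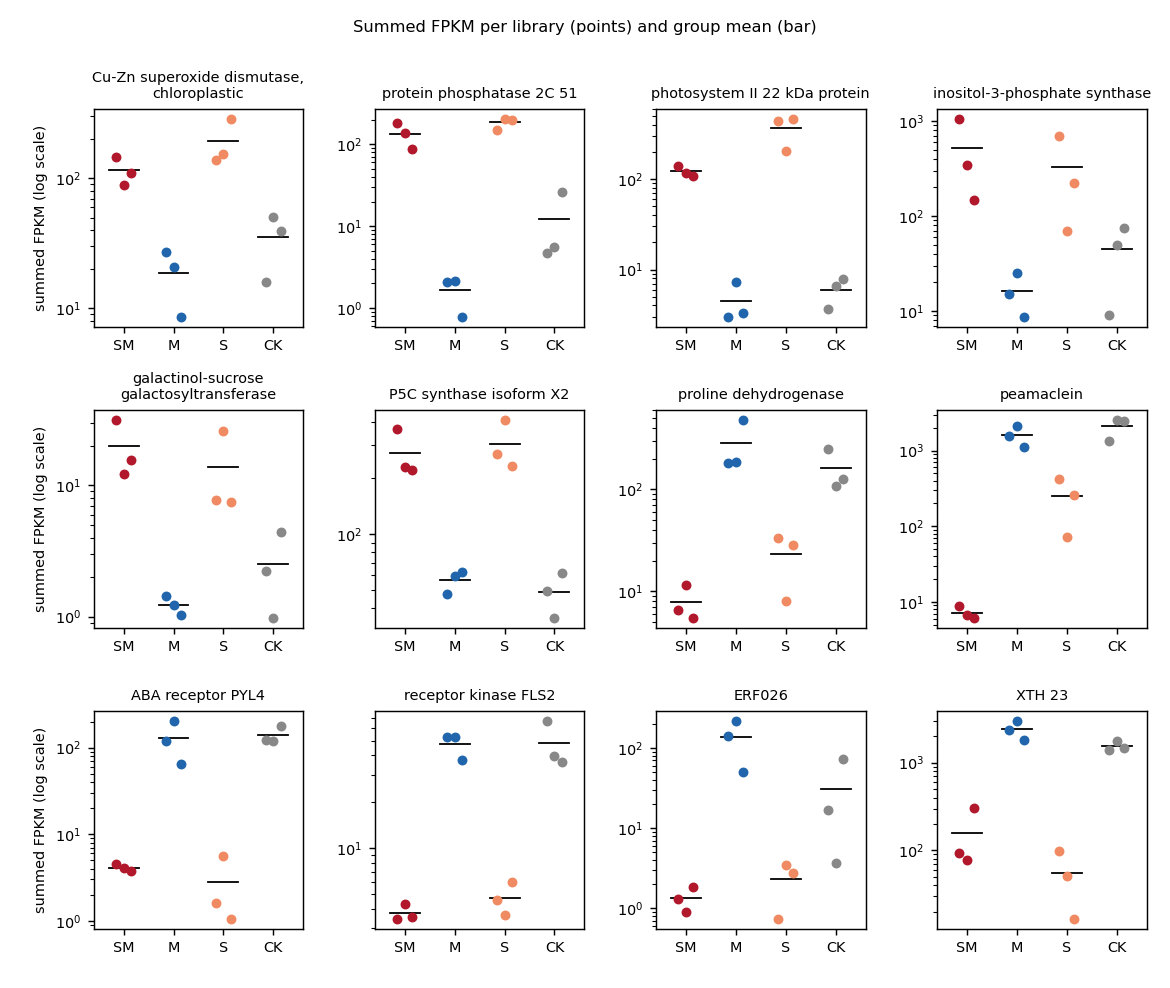
Summed FPKM of 12 annotations in each library (points) with the group mean (bar), on log axes, for SM, M, S, and CK leaves in that order. In each panel the 3 SM libraries lie on one side of the 3 M libraries, for example 8.78, 6.72 and 6.14 against 1562, 2087 and 1109.9 FPKM for peamaclein.

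Many genes of the photosynthetic apparatus rose and none of those listed fell. Photosystem subunits split water and move electrons to ferredoxin, and the antenna proteins bind the chlorophyll that feeds them with light energy. Of 47 annotations of photosystems and electron transport, 16 rose and none fell (34%, against 3.05% of all annotations), and the median change over all 47 was 0.85. Of 18 antenna annotations 9 rose and none fell (50%), with a median of 1.82. DESeq2 on the 6 libraries called 21 and 12 of them higher and none lower. At an unadjusted p below 0.05 were 26 and 13 annotations in either direction.

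Within the antenna, chlorophyll a-b binding protein 6, a subunit of the photosystem I antenna, had 662, 490.4 and 506 FPKM in SM leaves, against 56.1, 40.3 and 98.7 FPKM in M leaves (log2 fold change 3.01 ± 0.47, adjusted p = 0.00705). The SM values were all at least several times the M values. Chlorophyll a-b binding protein 7 had 3874, 3304 and 2133 FPKM in SM leaves, against 714, 392 and 935 FPKM in M leaves (log2 fold change 2.11 ± 0.42, adjusted p = 0.0162). CP24 10A, a minor antenna protein of photosystem II, had 199, 200.4 and 222 FPKM in SM leaves, against 44.7, 22.3 and 63.9 FPKM in M leaves (log2 fold change 2.17 ± 0.43, adjusted p = 0.0164). The calls of chlorophyll a-b binding protein 7 and CP24 10A were lost without SM replicate 1. The 2 most abundant antenna annotations did not pass. The annotation chlorophyll a/b binding protein, by far the strongest of the list, had 59523, 57109 and 67599.9 FPKM in SM leaves, against 53482, 35898 and 74199 FPKM in M leaves (log2 fold change 0.10 ± 0.32, adjusted p = 0.893), and AB80, a major light-harvesting protein of photosystem II, had 10604, 16598 and 15619 FPKM in SM leaves, against 9256, 2417 and 16838 FPKM in M leaves (log2 fold change 0.49 ± 0.58, adjusted p = 0.678). Here the groups overlapped, and M replicate 2 was the lowest library for both.

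Among photosystem subunits, photosystem I subunit O had 3586, 3275 and 2151 FPKM in SM leaves, against 745, 494 and 787 FPKM in M leaves (log2 fold change 2.10 ± 0.34, adjusted p = 0.00839). Oxygen-evolving enhancer protein 2, which stabilises the water-splitting site, had 3368, 3340.3 and 2722 FPKM in SM leaves, against 1046, 718 and 841 FPKM in M leaves (log2 fold change 1.82 ± 0.31, adjusted p = 0.00933). Photosystem I subunit IV B, the docking site of ferredoxin, had 551, 577 and 636 FPKM in SM leaves, against 325, 237 and 255 FPKM in M leaves (log2 fold change 1.07 ± 0.19, adjusted p = 0.0108). These 3 annotations kept their calls in every leave-one-out fit, and no SM library fell within the M range. The most abundant member of the list, oxygen-evolving enhancer protein 1, averaged 4268 ± 455 FPKM in SM leaves and 2061 ± 539 FPKM in M leaves (SD, n = 3 each) and just missed the threshold (log2 fold change 0.99 ± 0.28, adjusted p = 0.0555). Ferredoxins, the soluble electron carriers behind photosystem I, were chosen for description after their values were seen because the leaf form L-A rose. The leaf form L-A averaged 212 ± 69.2 FPKM in SM leaves and 26.2 ± 6.2 FPKM in M leaves (log2 fold change 2.95 ± 0.57, adjusted p = 0.0152). The annotation ferredoxin, the most abundant, did not pass (log2 fold change 1.09 ± 0.39, adjusted p = 0.115). No root form passed, and their changes differed in sign, with log2 fold changes of 0.56 ± 0.33 for R-B1 isoform X1, the most abundant of them, -0.84 ± 0.34 for R-B1, and -0.57 ± 0.35 for R-B2. Of the ferredoxin-NADP reductases, the leaf isozyme was at log2 fold change 1.36 ± 0.31, adjusted p = 0.0281 and the root isozyme at log2 fold change -0.52 ± 0.24, adjusted p = 0.234.

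The green-leaf marker sum given above, which shares members with these lists, was 32277, 35731 and 33149 FPKM in SM leaves, against 17440.5, 7747 and 29766 FPKM in M leaves. The antenna list, which includes the strongest antenna annotation, summed to 83848, 86979.6 and 93302 FPKM in SM leaves, against 65634, 40034 and 95252 FPKM in M leaves. On this sum M replicate 3 exceeded every SM library, and M replicate 2 was the lowest library on both. In a whole-leaf library a lower share of green cells and less of these transcripts per cell cannot be told apart. The number of photosystem annotations that rose lay between 6 (without SM replicate 1) and 12 when 1 library was left out, and was 8 without M replicate 2. For the antenna it lay between 2 (without SM replicate 1) and 8, with 4 without M replicate 2. None fell in any of these fits. In S vs CK, 28 photosystem annotations rose and 2 fell (median 1.46), and 16 antenna annotations rose and 0 fell (median 2.98), against 6.52% of all annotations higher and 5.72% lower. No member differed between the salt effects at an adjusted p below 0.05, and 10 of 47 and 6 of 18 did so at an unadjusted p below 0.05.

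**Figure D3:**
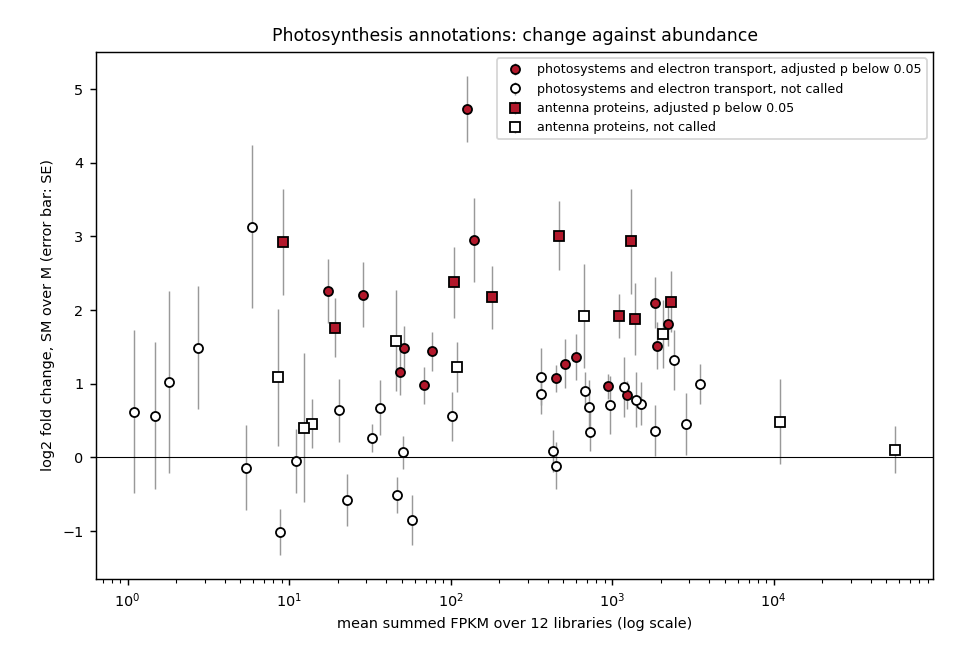
Log2 fold change of SM over M (error bar, SE) against mean summed FPKM over the 12 libraries on a log axis, for annotations of photosystems and electron transport (circles) and antenna proteins (squares), filled where the adjusted p was below 0.05. The 25 filled symbols lie above 0 and the 2 most abundant antenna annotations, at the far right, have values of 0.10 and 0.49.

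Enzymes that use the light energy rose in part. In carbon fixation, 13 of 69 annotations rose and 2 fell (18.8% and 2.9%, against 3.05% and 3.94% of all annotations), with a median of 0.14 that lay between 0.20 and 0.29 without 1 library. Sedoheptulose-1,7-bisphosphatase, a regulated step of the Calvin cycle, had 163, 120.0 and 139 FPKM in SM leaves, against 22.5, 34.4 and 10.7 FPKM in M leaves (log2 fold change 2.64 ± 0.42, adjusted p = 0.00778). Glyceraldehyde-3-phosphate dehydrogenase B, which spends the NADPH of the cycle, had 201, 146 and 203 FPKM in SM leaves, against 68.9, 77.7 and 42.5 FPKM in M leaves (log2 fold change 1.52 ± 0.25, adjusted p = 0.00901). Phosphoglycerate kinase 3 (1.94 ± 0.26, adjusted p = 0.00373), named as the cytosolic form, and fructose bisphosphate aldolase (2.17 ± 0.35, adjusted p = 0.00748) rose with them. All 4 were separated in SM and M leaves and kept their calls in every leave-one-out fit. The Rubisco small chain, which is the most abundant annotation of the list, had 3184, 3049 and 3682 FPKM in SM leaves, against 2640.2, 3048 and 2682 FPKM in M leaves and did not pass. Without 1 library the number of risers lay between 10 and 12.

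Photorespiration, which salvages the product of Rubisco's reaction with oxygen, was represented in the glyoxylate and dicarboxylate list. In it 9 of 75 annotations rose and 2 fell (12% and 2.67%, against 3.05% and 3.94% of all annotations). Mitochondrial serine hydroxymethyltransferase had 293, 253 and 316 FPKM in SM leaves, against 88.8, 66.5 and 71.3 FPKM in M leaves (log2 fold change 1.74 ± 0.19, adjusted p = 0.00289). Its partner, glycine dehydrogenase, had 107, 95.9 and 86.7 FPKM in SM leaves, against 36, 28.4 and 21.9 FPKM in M leaves (log2 fold change 1.72 ± 0.25, adjusted p = 0.00513). Ferredoxin-dependent glutamate synthase, which reassimilates the released ammonium, had 205, 216 and 182 FPKM in SM leaves, against 80.5, 78.2 and 56.4 FPKM in M leaves (log2 fold change 1.46 ± 0.18, adjusted p = 0.00367). Glutamate-glyoxylate aminotransferase 2 rose by 2.0 ± 0.35 (adjusted p = 0.0118). The values of each of these 4 enzymes were close together within a group, and every SM value exceeded every M value. The list's median was -0.08. Leaving out 1 library left 6 to 8 risers.

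In the porphyrin and chlorophyll list, 6 of 65 annotations rose and 1 fell (9.23% and 1.54%, median 0.28). Magnesium-protoporphyrin IX monomethyl ester cyclase, which closes the isocyclic ring of chlorophyll, had 428, 458 and 324 FPKM in SM leaves, against 80.1, 42 and 61.9 FPKM in M leaves (log2 fold change 2.68 ± 0.42, adjusted p = 0.0074). The divinyl reductase of the same route had 25.5, 21 and 26.3 FPKM in SM leaves, against 5.66, 6.07 and 3.89 FPKM in M leaves (log2 fold change 2.19 ± 0.30, adjusted p = 0.00432). 7-Hydroxymethyl chlorophyll a reductase, of the chlorophyll cycle, rose by 1.63 ± 0.27 (adjusted p = 0.00847). Pheophorbide a oxygenase, the enzyme that opens the chlorophyll ring in senescing leaves, had 236, 204 and 442 FPKM in SM leaves, against 522, 634 and 346 FPKM in M leaves and did not pass (adjusted p = 0.256). Without 1 library 4 to 7 annotations of the list rose. In carotenoid synthesis, 4 of 39 rose and 3 fell (10.3% and 7.69%, against 3.05% and 3.94% of all annotations). Without 1 library 0 to 3 rose and 0 to 3 fell. Phytoene synthase 2, its entry step, had 48.7, 43.8 and 22.2 FPKM in SM leaves, against 7.15, 3.39 and 6.98 FPKM in M leaves (log2 fold change 2.65 ± 0.55, adjusted p = 0.0197, lost without SM replicate 1, SM replicate 2, or M replicate 2).

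Starch and sucrose genes moved in both directions, with 11 of 188 annotations higher and 10 lower (5.85% and 5.32%, against 3.05% and 3.94% of all annotations, median 0.05). The study drew attention to this pathway from the same samples, so its choice is not independent. ADP-glucose pyrophosphorylase, the enzyme that commits glucose to starch, was among the risers. Its large subunit 3 had 52, 54.1 and 69 FPKM in SM leaves, against 12, 12.7 and 14.3 FPKM in M leaves (log2 fold change 2.12 ± 0.29, adjusted p = 0.0039), and its small subunit 1 had 30.7, 37.7 and 52.4 FPKM in SM leaves, against 5.77, 16.6 and 9.68 FPKM in M leaves (log2 fold change 2.55 ± 0.36, adjusted p = 0.00432). Both subunits were thus higher in every SM library than in any M library. UTP-glucose-1-phosphate uridylyltransferase, which makes UDP-glucose, had 36.3, 48 and 38 FPKM in SM leaves, against 15.1, 14.8 and 11.4 FPKM in M leaves (log2 fold change 1.55 ± 0.20, adjusted p = 0.00373). Trehalose-phosphate synthase 7, of the class of regulatory trehalose-phosphate proteins, fell to 33.7, 35.8 and 35 FPKM in SM leaves, against 84.8, 134 and 74.2 FPKM in M leaves (log2 fold change -1.51 ± 0.19, adjusted p = 0.00373). These 4 calls held in every leave-one-out fit, while the list's calls as a whole fell to between 5 (without SM replicate 1 or SM replicate 2) and 8 higher and between 3 (without SM replicate 2) and 8 lower. Starch synthase 3 (log2 fold change 0.82, adjusted p = 0.159), beta-amylase (2.61, adjusted p = 0.0629), and sucrose synthase (-0.46, adjusted p = 0.389) did not pass as sums.

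The proline genes described here changed in opposite directions along the pathway. Plants make proline from glutamate through pyrroline-5-carboxylate (P5C) and degrade it in mitochondria through proline dehydrogenase. P5C synthase isoform X2, the rate-limiting enzyme of synthesis, had 369, 231 and 222 FPKM in SM leaves, against 47.8, 59.4 and 62.6 FPKM in M leaves (log2 fold change 2.29 ± 0.31, adjusted p = 0.0042). P5C reductase, the next step, had 67.4, 93.5 and 53.1 FPKM in SM leaves, against 14.5, 13.6 and 4.16 FPKM in M leaves (log2 fold change 2.72 ± 0.39, adjusted p = 0.0049), and a single-model annotation of the same enzyme rose by 2.64 ± 0.37. For P5C synthase isoform X2 and P5C reductase every SM value lay above every M value. Proline dehydrogenase, the first enzyme of breakdown, went the other way with 6.47, 11.5 and 5.47 FPKM in SM leaves, against 183, 186 and 486 FPKM in M leaves (log2 fold change -5.15 ± 0.70, adjusted p = 0.0039). M replicate 3 was its highest library and the SM libraries were all far lower. Over the list, 3 of 10 annotations rose and 2 fell (30% and 20%, against 3.05% and 3.94% of all annotations). Of the 10 changes 6 were above 0 and 4 below, and 3 to 4 rose and 1 fell without 1 library. The calls of the 4 annotations described held in every leave-one-out fit. In S vs CK the same 4 stood at 2.67, 2.20, 1.76 and -2.79, and for proline dehydrogenase the difference between the salt effects was -2.36 ± 0.84, adjusted p = 0.535.

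Among other osmolytes, raffinose synthase (galactinol-sucrose galactosyltransferase), which builds raffinose from sucrose and galactinol, had 31.7, 12.3 and 15.6 FPKM in SM leaves, against 1.44, 1.22 and 1.02 FPKM in M leaves (log2 fold change 3.98 ± 0.68, adjusted p = 0.00967). The M values were uniform and every SM value was several times higher. In the raffinose, trehalose, and inositol list 2 of 22 annotations rose and 4 fell (9.09% and 18.2%, against 3.05% and 3.94% of all annotations). Without 1 library 1 to 4 fell. All 4 of the lower ones were trehalose-phosphate synthase or phosphatase annotations. Trehalose-phosphate synthase 9 (-0.95 ± 0.19, adjusted p = 0.0179) and trehalose-phosphate synthase 1 (-3.16 ± 0.68, adjusted p = 0.0223) fell, with calls held in 4 and 2 of 6 leave-one-out fits, and the most abundant one, trehalose-phosphate synthase 6, was at 392 ± 67.3 FPKM in SM leaves and 366 ± 66.6 FPKM in M leaves and did not pass.

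Water and ion handling changed in few members. Of 17 aquaporin annotations 1 rose and 1 fell (5.88% each). A NIP-type aquaporin, of a family that also passes small solutes, had 61.2, 141 and 118 FPKM in SM leaves, against 24.2, 12.1 and 22.9 FPKM in M leaves (log2 fold change 2.37 ± 0.39, adjusted p = 0.00847). The plasma membrane aquaporin PIP2-7 had 39.9, 35.2 and 33.2 FPKM in SM leaves, against 206, 105 and 138 FPKM in M leaves (log2 fold change -2.09 ± 0.43, adjusted p = 0.0195, kept in 2 of 6 leave-one-out fits). The most abundant, a vacuolar TIP-type, had 348, 268 and 214 FPKM in SM leaves, against 1151, 341 and 1789.7 FPKM in M leaves and did not pass (adjusted p = 0.0819), with M replicate 2 close to the SM range. In the sodium, potassium, and proton transport list 2 of 59 annotations rose and 2 fell (3.39% each), shares close to those of all annotations (3.05% and 3.94%). The risers were potassium transporter 7 (0.66 ± 0.16, adjusted p = 0.032) and the proton pump ATPase 11 (1.66 ± 0.42, adjusted p = 0.0398), and both of those that fell were calcium-transporting ATPases, numbers 2 (-3.08 ± 0.64) and 12 (-0.92 ± 0.21), which pump calcium out of the cytosol rather than sodium or potassium. These 4 calls held in 0 to 3 of the 6 leave-one-out fits. Of 19 late embryogenesis abundant and dehydrin annotations, 1 rose and 0 fell (5.26% higher, against 3.05% of all annotations), and DESeq2 called 8 higher. The median of 1.17 was 0.47 without SM replicate 2 and 0.62 without M replicate 3. The riser was cold-regulated 413 inner membrane protein 1, a chloroplast membrane protein, with 101, 139 and 117 FPKM in SM leaves, against 34.9, 46.1 and 12 FPKM in M leaves (log2 fold change 1.96 ± 0.50, adjusted p = 0.0418), and its call was lost whichever library was left out. The dominant annotation of the list, the ABA and environmental stress-inducible protein, stood at 35896 ± 12516 FPKM in SM leaves and 41589.8 ± 5243 FPKM in M leaves.

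In the ABA pathway 2 of 4 receptor annotations fell (50%, against 3.94% of all annotations). Type 2C protein phosphatases moved in both directions, with 4 of 52 higher and 5 lower. Their list covers the family as a whole and does not separate those that act in ABA signalling. PYR/PYL receptors bind ABA and then hold the phosphatases of this pathway off the SnRK2 kinases. The 2 falls among the receptors, with no rise, were found in the full fit and in each of the 6 leave-one-out fits. PYL4 had 4.49, 4.01 and 3.76 FPKM in SM leaves, against 118, 205 and 64.3 FPKM in M leaves (log2 fold change -4.96 ± 0.61, adjusted p = 0.00367). PYR1 had 2.68, 1.29 and 2.66 FPKM in SM leaves, against 26.4, 37.3 and 23.6 FPKM in M leaves (log2 fold change -3.69 ± 0.59, adjusted p = 0.00778). The SM values of both were low in every library. PYL9, the most abundant receptor, had 193, 203 and 182 FPKM in SM leaves, against 221, 167 and 207 FPKM in M leaves and did not pass (adjusted p = 0.84). In S vs CK, PYL4 and PYR1 stood at -5.68 and -3.47.

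The protein phosphatase 2C list had 7.69% of its annotations higher and 9.62% lower, against 3.05% and 3.94% of all annotations, with a median of -0.05. Besides number 51, described above, probable protein phosphatase 2C 24 had 119.6, 139 and 121 FPKM in SM leaves, against 22.8, 46.8 and 16.1 FPKM in M leaves (log2 fold change 2.18 ± 0.36, adjusted p = 0.00847). Probable protein phosphatase 2C 73 (1.05 ± 0.16, adjusted p = 0.00705) and the annotation protein phosphatase 2C family protein (1.36 ± 0.22, adjusted p = 0.00796) rose by smaller amounts. The 4 risers kept their calls without any 1 library, and the number of falls lay between 2 and 4. The 5 annotations that fell are not described, because up to 4 called members were taken by smallest p. For number 51 the S over CK value was 3.92, and the difference between the salt effects was 2.41 ± 0.83, adjusted p = 0.535. Of 10 SnRK2 and ABA-responsive bZIP annotations, 1 rose and 1 fell (10% each, against 3.05% and 3.94% of all annotations). ABSCISIC ACID-INSENSITIVE 5-like protein 7, a bZIP factor, changed by 0.67 ± 0.18 (adjusted p = 0.0468), and the kinase SAPK2 by -1.01 ± 0.25 (adjusted p = 0.0396), with the rise lost whichever library was left out and the fall kept only without M replicate 1. The abundant kinase SRK2E, the guard-cell kinase known as OST1 in Arabidopsis, was at 173 ± 32 FPKM in SM leaves and 165 ± 47.6 FPKM in M leaves.

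ABA metabolism was represented by 12 annotations, of which none rose and 2 fell (16.7% lower, against 3.94% of all annotations). Without 1 library 0 to 2 fell, and with a replicate block 0. Both annotations that fell were 8′-hydroxylases, which inactivate ABA. ABA 8′-hydroxylase 1 had 5.13, 5.23 and 11.7 FPKM in SM leaves, against 47.7, 80.1 and 16.6 FPKM in M leaves (log2 fold change -2.75 ± 0.58, adjusted p = 0.0205). Its S over CK value was 0.80, and the difference between the salt effects was -3.55 ± 0.79, adjusted p = 0.395. ABA 8′-hydroxylase 4 had 0.643, 2.68 and 1.16 FPKM in SM leaves, against 25.6, 13.3 and 69.1 FPKM in M leaves (log2 fold change -4.72 ± 1.10, adjusted p = 0.0302). The groups were separated in both, but the calls held in 3 and 2 of 6 leave-one-out fits. On the side of synthesis, the putative 9-cis-epoxycarotenoid dioxygenase that cleaves carotenoids towards ABA had 4.43, 4.49 and 4.5 FPKM in SM leaves, against 1.2, 1.03 and 0.361 FPKM in M leaves and narrowly missed the threshold (log2 fold change 2.33 ± 0.64, adjusted p = 0.0538).

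ROS-detoxifying families had a few members higher. Superoxide dismutases convert superoxide to hydrogen peroxide. In their list 3 of 9 annotations rose (33.3%, against 3.05% of all annotations), 2 of them dismutases and the other a copper chaperone. None fell, and all 9 had a positive change (median 0.98, and 0.49 without M replicate 3). The chloroplast Cu-Zn enzyme had 146, 89.5 and 111 FPKM in SM leaves, against 27, 20.7 and 8.6 FPKM in M leaves (log2 fold change 2.62 ± 0.50, adjusted p = 0.0143). The copper chaperone that loads it had 55, 80.1 and 85.6 FPKM in SM leaves, against 16.2, 20.3 and 13.5 FPKM in M leaves (log2 fold change 2.11 ± 0.31, adjusted p = 0.00536). The annotation superoxide dismutase [Cu-Zn] had 148, 161 and 163 FPKM in SM leaves, against 62.6, 50.3 and 37.6 FPKM in M leaves (log2 fold change 1.67 ± 0.40, adjusted p = 0.0338). No SM library of these 3 fell into the M range. The chaperone kept its call in every leave-one-out fit, the chloroplast enzyme lost it without SM replicate 1, and the third lost it whichever library was left out, so neither dismutase held throughout.

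In the ascorbate-glutathione cycle and catalase list, 2 of 16 annotations rose and none fell (12.5% higher, against 3.05% of all annotations), and 1 to 2 rose without 1 library. L-ascorbate peroxidase 6, which reduces hydrogen peroxide in plastids and mitochondria, had 206, 226 and 181 FPKM in SM leaves, against 93.5, 75.3 and 68 FPKM in M leaves (log2 fold change 1.32 ± 0.25, adjusted p = 0.0137). L-ascorbate peroxidase 3 rose by 0.96 ± 0.22 (adjusted p = 0.0309, kept in 1 of 6 leave-one-out fits), and the abundant catalase-4 had 1366, 1077 and 1449 FPKM in SM leaves, against 1540.1, 1327 and 1312 FPKM in M leaves with overlapping groups. Glutathione S-transferases, which conjugate glutathione to reactive compounds, gave 3 rises and 1 fall among 22 annotations (13.6% and 4.55%), and 1 to 2 rises and 0 to 1 falls without 1 library. Glutathione S-transferase 3 had 214, 171 and 259 FPKM in SM leaves, against 76.8, 93 and 66.9 FPKM in M leaves (log2 fold change 1.42 ± 0.20, adjusted p = 0.00432), while GST 23 had 30.1, 33.6 and 55.8 FPKM in SM leaves, against 125, 352 and 113 FPKM in M leaves (log2 fold change -2.30 ± 0.57, adjusted p = 0.0375). The search words of the list for class III peroxidases, which act in cell walls, also matched the ascorbate peroxidases just described. Of its 25 annotations 3 rose and 1 fell (12% and 4%, against 3.05% and 3.94% of all annotations), with a median of -0.57. The ascorbate peroxidases are 2 of the 3 that rose, which leaves 1 rise and 1 fall. The 25, the shares and the median include them and so do not describe class III peroxidases alone. Peroxidase 42 had 933, 1458 and 1125 FPKM in SM leaves, against 419, 243 and 131 FPKM in M leaves (log2 fold change 2.13 ± 0.46, adjusted p = 0.0228, kept in 2 of 6 leave-one-out fits). Respiratory burst oxidases, which produce superoxide, gave no call among 4 annotations, with 0 at an unadjusted p below 0.05 and 0 called by DESeq2.

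Immune and calcium signalling genes fell more often than they rose. In the plant-pathogen interaction list 6 of 216 annotations rose and 29 fell (13.4% lower, against 3.94% of all annotations, median -0.47), and in the MAPK signalling list 4 of 170 rose and 23 fell (13.5%, median -0.38, and -0.24 without M replicate 2). The study singled out the plant-pathogen pathway on these samples, and the 2 lists share members. FLS2, the receptor kinase that recognises bacterial flagellin, had 3.44, 4.32 and 3.52 FPKM in SM leaves, against 52.8, 52.3 and 37.4 FPKM in M leaves (log2 fold change -3.89 ± 0.27, adjusted p = 1.93e-04). Its values were uniform within each group and its S over CK value was -3.65. PAD4, a lipase-like protein of salicylic acid signalling, had 38.1, 69.1 and 99 FPKM in SM leaves, against 200.5, 329 and 215 FPKM in M leaves (log2 fold change -1.88 ± 0.33, adjusted p = 0.0118). Calcium-dependent protein kinase 28, which limits immune signalling in Arabidopsis, had 13.4, 21.5 and 17.2 FPKM in SM leaves, against 77.9, 98.3 and 61.7 FPKM in M leaves (log2 fold change -2.22 ± 0.28, adjusted p = 0.00367). These 3 calls held in every leave-one-out fit. The number of falls in the plant-pathogen list was 3 without SM replicate 1, 8 without SM replicate 2, 10 without M replicate 2, and at most 27 without another library. For the MAPK list the numbers without SM replicate 1, SM replicate 2, and M replicate 2 were 4, 6 and 7.

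Calmodulin-related annotations, which include calmodulin-binding proteins, gave 8 falls and no rise among 48 (16.7% lower, against 3.94% of all annotations, median -0.34). The calcium sensor CML24 had 24.8, 39.7 and 28.8 FPKM in SM leaves, against 279, 548 and 117 FPKM in M leaves, with M replicate 2 the highest (log2 fold change -3.32 ± 0.60, adjusted p = 0.0122, lost without SM replicate 1). Calmodulin-binding receptor-like cytoplasmic kinase 2 had 10.6, 16 and 14.7 FPKM in SM leaves, against 60.7, 117 and 65.8 FPKM in M leaves (log2 fold change -2.57 ± 0.34, adjusted p = 0.00373). Calmodulin-binding protein 60 F, from a family that controls salicylic acid synthesis, had 0.456, 0.643 and 1.45 FPKM in SM leaves, against 13, 35.3 and 14.2 FPKM in M leaves (log2 fold change -4.61 ± 0.75, adjusted p = 0.00817). Calmodulin itself had 375, 386 and 375 FPKM in SM leaves, against 389, 511 and 291 FPKM in M leaves, with overlapping groups (adjusted p = 0.854). The falls in this list numbered 2 to 7 when 1 library was left out, fewest without SM replicate 1. Among CDPK, CBL, and CIPK kinases 1 of 35 rose and 5 fell (2.86% and 14.3%, against 3.05% and 3.94% of all annotations), and 2 to 5 fell without 1 library. The annotation CBL-interacting kinase, whose products relay calcium signals to ion transporters, had 44.8, 33.7 and 51.9 FPKM in SM leaves, against 146, 101 and 185 FPKM in M leaves (log2 fold change -1.80 ± 0.28, adjusted p = 0.00698).

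ERF and WRKY transcription factors, which carry ethylene, cold, and defence responses, fell in part. Of 48 ERF and DREB annotations none rose and 12 fell (25%, against 3.94% of all annotations), with a median of -0.84, which was -0.52 without M replicate 2. DESeq2 called 2 higher and 18 lower, and 1 was called higher with upper-quartile scaling or without SM replicate 3. ERF106 had 38.2, 56.7 and 46.9 FPKM in SM leaves, against 296, 469.6 and 276 FPKM in M leaves (log2 fold change -2.90 ± 0.32, adjusted p = 0.00283). ERF061 had 6.31, 15.5 and 23.7 FPKM in SM leaves, against 67.1, 96 and 49.1 FPKM in M leaves (log2 fold change -2.35 ± 0.42, adjusted p = 0.0122). Ethylene response factor 8, a factor with higher levels, had 336, 418 and 308 FPKM in SM leaves, against 836, 849.7 and 707 FPKM in M leaves (log2 fold change -1.21 ± 0.22, adjusted p = 0.0125, lost without SM replicate 1). In all 3 the highest SM value lay under the lowest M value. ERF1B fell as a sum (log2 fold change -1.76, adjusted p = 0.0374). When 1 library was left out, 4 to 9 of the family fell, fewest without SM replicate 1, SM replicate 3, or M replicate 2. Of 41 WRKY annotations none rose and 3 fell (7.32%), with a median of -0.85 and 34 values below 0. WRKY 15 had 41.7, 28.5 and 60 FPKM in SM leaves, against 115, 128 and 97.5 FPKM in M leaves (log2 fold change -1.42 ± 0.28, adjusted p = 0.0173, kept in 3 of 6 leave-one-out fits), and WRKY 33, a regulator of camalexin and defence in Arabidopsis, fell by 1.88 on the log2 scale (adjusted p = 0.0309). No WRKY call was left without SM replicate 1, SM replicate 2, or M replicate 2, and up to 6 were made without another library.

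Hormone signalling as a whole held 255 annotations, of which 8 rose and 17 fell (3.14% and 6.67%, against 3.05% and 3.94% of all annotations), a pathway that the study also chose on these samples. The counts were 5 and 5 without SM replicate 1, 4 and 8 without M replicate 2, and 5 and 9 with a replicate block, and the falls numbered 5 to 12 without 1 library. In the ethylene list 3 of 18 annotations fell and none rose (16.7% lower, against 3.94% of all annotations), and 1 to 2 fell without 1 library. Ethylene receptor 2 had 4.78, 9.19 and 4.38 FPKM in SM leaves, against 47.1, 77.1 and 69.8 FPKM in M leaves (log2 fold change -3.44 ± 0.48, adjusted p = 0.00432). 1-Aminocyclopropane-1-carboxylate (ACC) synthase, which makes the precursor of ethylene, had 3.56, 4.67 and 4.09 FPKM in SM leaves, against 29.1, 32.8 and 14.8 FPKM in M leaves (log2 fold change -2.64 ± 0.60, adjusted p = 0.0274, kept in 1 of 6 leave-one-out fits). ACC oxidase, the last step, had 704, 743 and 1188 FPKM in SM leaves, against 2278, 1793 and 1934 FPKM in M leaves and did not pass (adjusted p = 0.0736). Small auxin-up RNA genes gave 2 falls and no rise among 14 annotations (14.3% lower, against 3.94% of all annotations). SAUR50 had 12.1, 17.3 and 17.1 FPKM in SM leaves, against 173, 119 and 171 FPKM in M leaves (log2 fold change -3.34 ± 0.42, adjusted p = 0.00367). Auxin-induced protein 10A5 fell to 7.59, 2.01 and 3.42 FPKM in SM leaves, against 83.6, 19.9 and 40.2 FPKM in M leaves (adjusted p = 0.0254), while its S over CK value was 0.53 and the difference between the salt effects -3.95 ± 1.01, adjusted p = 0.478. Auxin response factor 19, a transcriptional activator, had 22.6, 36.1 and 25.5 FPKM in SM leaves, against 61.7, 76.8 and 46.2 FPKM in M leaves (log2 fold change -1.16 ± 0.21, adjusted p = 0.0127, lost without SM replicate 1).

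Jasmonate repressors gave no call. JAZ (TIFY) proteins hold the transcription factor MYC2 inactive until jasmonate arrives. None of 12 annotations of JAZ proteins and MYC2 passed in SM vs M, 5 had an unadjusted p below 0.05, and DESeq2 called 2 lower. Their median was -2.22, with 10 of 12 below 0, but 0.06 without M replicate 2, so the direction of the median rested on that library. The median in S vs CK was 1.36, and 7 of 12 had an unadjusted p below 0.05 for the difference between the salt effects, with none at an adjusted p below 0.05. The most abundant, TIFY 6B, had 224, 168 and 155 FPKM in SM leaves, against 197, 151 and 193 FPKM in M leaves, with overlapping groups. Summed over the list, FPKM was 358, 391 and 415 in SM leaves, against 476, 1902 and 388 in M leaves, far higher in M replicate 2 than in the other M libraries. In jasmonate synthesis, lipoxygenase 6, which oxidises linolenic acid in the chloroplast, had 51.7, 37.7 and 22.1 FPKM in SM leaves, against 6.82, 5.52 and 4.11 FPKM in M leaves (log2 fold change 1.97 ± 0.31, adjusted p = 0.00748).

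Several genes of flavonoid metabolism were lower, and phenylpropanoid genes moved in both directions. Flavonoids are made from phenylalanine through chalcone, and legumes extend the route to isoflavonoids and pterocarpans. Of 46 flavonoid annotations 7 fell and none rose (15.2% lower, against 3.94% of all annotations), with a median of -0.36 that was -0.19 without SM replicate 1 and -0.10 without M replicate 2, while DESeq2 called 6 higher and 9 lower. Trans-cinnamate 4-monooxygenase, the second step of the general pathway, had 4.77, 4.63 and 7.6 FPKM in SM leaves, against 15.3, 45.4 and 39.5 FPKM in M leaves (log2 fold change -2.60 ± 0.52, adjusted p = 0.0171). Chalcone synthase 8 had 0.314, 0.197 and 0.264 FPKM in SM leaves, against 1.05, 16.1 and 6.25 FPKM in M leaves (log2 fold change -4.85 ± 0.86, adjusted p = 0.0118). Chalcone reductase, a legume enzyme that acts with it, had 1.63, 8.11 and 8.54 FPKM in SM leaves, against 37.6, 194.5 and 94.7 FPKM in M leaves (log2 fold change -4.16 ± 0.84, adjusted p = 0.0177). In each of these 3, M replicate 1 was the lowest M library and still above every SM library. Chalcone synthase 8 kept its call in every leave-one-out fit and the other two in 3 of the 6. The falls numbered 2 to 7 without 1 library, fewest without SM replicate 1 or SM replicate 2. Of 20 isoflavonoid annotations 2 fell (10%, against 3.94% of all annotations), and none without SM replicate 1, SM replicate 2, or M replicate 2. In phenylpropanoid synthesis 5 of 119 rose and 8 fell (4.2% and 6.72%, against 3.05% and 3.94% of all annotations, median -0.14). Without 1 library 1 to 4 rose and 2 to 9 fell. A caffeoyl-CoA O-methyltransferase, of lignin monomer synthesis, had 13.3, 14.8 and 18.9 FPKM in SM leaves, against 63.1, 157 and 93.1 FPKM in M leaves (log2 fold change -2.76 ± 0.40, adjusted p = 0.00516), and peroxidase1B had 14.1, 17.1 and 13.5 FPKM in SM leaves, against 109, 169 and 56.5 FPKM in M leaves (log2 fold change -2.90 ± 0.38, adjusted p = 0.00373).

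Several wall-loosening genes fell. Expansins and xyloglucan endotransglucosylase/hydrolases (XTHs) let growing walls extend, and of 22 annotations 1 rose and 5 fell (22.7% lower, against 3.94% of all annotations). The median was -2.57, and -1.46 without M replicate 1. XTH 23 had 93.2, 78.6 and 307 FPKM in SM leaves, against 2352, 3017 and 1802 FPKM in M leaves (log2 fold change -3.93 ± 0.68, adjusted p = 0.0101). It was abundant in M leaves and lay far lower in every SM library. Expansin-like B1 had 11.9, 9.66 and 12.2 FPKM in SM leaves, against 78.7, 61.2 and 103 FPKM in M leaves (log2 fold change -2.92 ± 0.43, adjusted p = 0.00575), and expansin-like A2 had 20.6, 27.6 and 26.9 FPKM in SM leaves, against 125, 222 and 88.8 FPKM in M leaves (log2 fold change -2.53 ± 0.46, adjusted p = 0.0129, lost without SM replicate 1). Without 1 library 2 to 4 of the list fell, fewest without SM replicate 1.

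In the circadian list 6 of 60 annotations rose and 3 fell (10% and 5.0%, against 3.05% and 3.94% of all annotations). CONSTANS-like 1, a B-box protein of light and day-length responses, had 198, 88.8 and 163 FPKM in SM leaves, against 36, 24.8 and 16.1 FPKM in M leaves (log2 fold change 2.53 ± 0.40, adjusted p = 0.00705). SUPPRESSOR OF PHYA-105 1, which works in the ubiquitin ligase that represses light signalling, had 7.36, 8.32 and 8.27 FPKM in SM leaves, against 2.17, 1.59 and 2.62 FPKM in M leaves (log2 fold change 1.84 ± 0.30, adjusted p = 0.00847). CONSTANS-LIKE 16 had 2551, 2340.0 and 1867 FPKM in SM leaves, against 794, 453 and 1005 FPKM in M leaves (log2 fold change 1.54 ± 0.33, adjusted p = 0.0237, kept in 2 of 6 leave-one-out fits). All 3 were higher in each SM library than in any M library. The time of day at which leaves were taken is not given in the labels. The rises numbered 2 to 7 without 1 library.

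Serotonin N-acetyltransferase 2, an enzyme of melatonin synthesis that acetylates serotonin in the chloroplast, had 26.3, 22.4 and 31.8 FPKM in SM leaves, against 13.2, 12.2 and 13.7 FPKM in M leaves (log2 fold change 1.0 ± 0.24, adjusted p = 0.0364). The values were close within each group, but the call was lost whichever library was left out. In the melatonin synthesis list as a whole 2 of 6 annotations rose and none fell (33.3% higher, against 3.05% of all annotations). In each fit that left out 1 library 1 rise was called, of another annotation. DESeq2 called 3 higher and 1 lower.

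The salt effects with and without melatonin share no library and could be set against each other. Of the 1076 annotations called in SM vs M, 652 were also called in S vs CK, and 649 of the 652 had the same direction. The 652 are 60.6% of the SM vs M calls and 34.6% of the 1885 S vs CK calls. Over all 15402 annotations S vs CK called 6.52% higher and 5.72% lower, and SM vs M 3.05% and 3.94%. The direction was the same in 1037 of the 1076 whether or not S vs CK passed (96.4%, against 70.6% of all tested annotations). Across the 15402 annotations Pearson's r between both log2 fold changes was 0.44, a description over genes that are not independent and that share the fit. The test of the difference between the salt effects, (SM − M) − (S − CK), called no annotation (0%), with a smallest adjusted p of 0.235 and 1244 annotations at an unadjusted p below 0.05. DESeq2 was not run for this difference. With 3 libraries per group a p that misses the threshold does not show that the effects were equal.

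The annotations with the smallest p for this difference included peamaclein, given above, and internal alternative NAD(P)H-ubiquinone oxidoreductase A1, a mitochondrial bypass of complex I. The oxidoreductase had 41.4, 36.6 and 48.3 FPKM in SM leaves, against 42.1, 45.4 and 39.9 FPKM in M leaves, and 63.5, 68.3 and 59.9 FPKM in S leaves, against 23.2, 22.6 and 16.9 FPKM in CK leaves (difference -1.80 ± 0.25, adjusted p = 0.235). Its levels in SM and M leaves overlapped and lay between those of S and CK leaves. Cingulin-like protein 1 had 4.44, 7.71 and 6.26 FPKM in SM leaves, against 1.28, 1.9 and 0.696 FPKM in M leaves, and 2.04, 1.8 and 1.72 FPKM in S leaves, against 2.14, 2.85 and 2.66 FPKM in CK leaves (difference 2.73 ± 0.47, adjusted p = 0.241). WAT1-related protein At4g08290, of the family of the vacuolar auxin transporter WAT1, had 16.6, 35.8 and 18.4 FPKM in SM leaves, against 6.75, 13.8 and 6.18 FPKM in M leaves, and 2.4, 2.68 and 1.32 FPKM in S leaves, against 9.0, 56.4 and 15.6 FPKM in CK leaves (difference 5.06 ± 0.92, adjusted p = 0.282). The other 4 of the 8 had a whole group at or near 0, in CK leaves for leucine-tRNA ligase isoform D, the cytosol alanyl aminopeptidase, and thioredoxin-like protein CXXS1, and in SM and CK leaves for a polyubiquitin-like annotation.

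**Figure D4:**
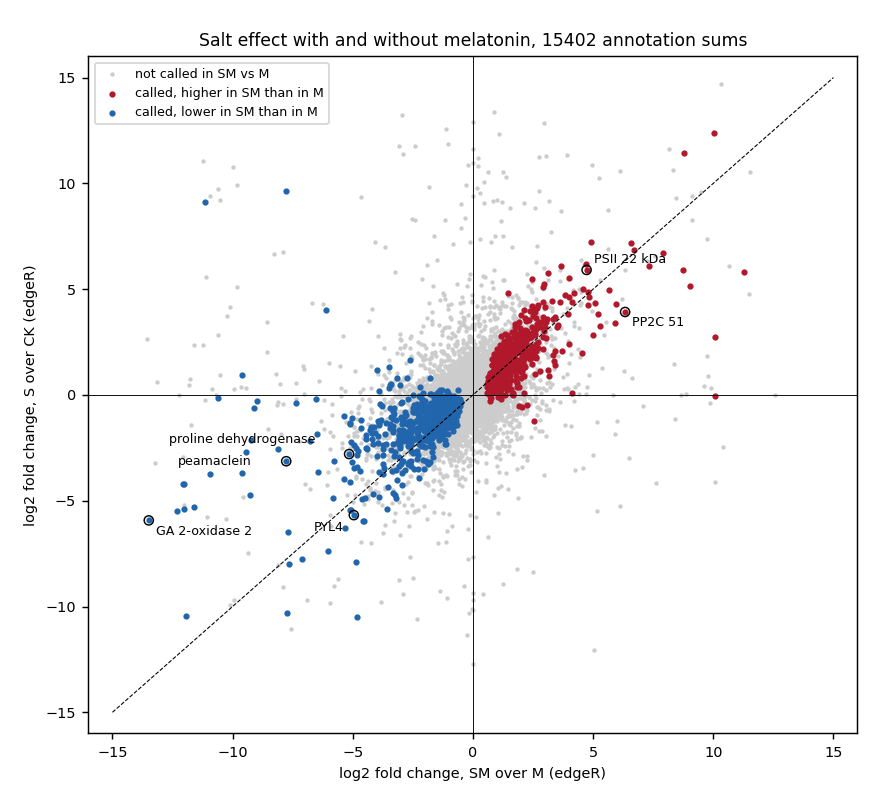
Log2 fold change of S over CK against that of SM over M for 15402 annotation sums (red and blue points were called higher and lower in SM than in M, grey points were not called, and the dashed line marks equal effects). Of the coloured points 1037 of 1076 lie in the quadrants of equal direction.

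Over single gene models, 127 of 50931 passed in SM vs M, with 63 higher (0.124%) and 64 lower (0.126%), and 5977 met the study's thresholds (11.7%). The count varied widely with the fit and the tool, as edgeR on the 6 libraries called 2, a replicate block 0, and DESeq2 3583. The annotation sum was also called for 97 of the 127. For 23 of the 127 every library of SM or of M had 3 counts or fewer. The number of calls lay between 37 (without M replicate 1) and 92 (without M replicate 3) when 1 library was left out, with 42, 64 and 90 without SM replicates 1, 2 and 3 and 43 without M replicate 2. The model with the largest rise, MS.gene000927 (chromosome 4.4, 84902106 to 84904001), is 1 of 22 models annotated putative chlorophyll A-B binding protein and had 123, 174 and 84.4 FPKM in SM leaves and 0 in all M leaves, at least 2310.0-fold higher against 3 counts per library (adjusted p = 0.0156). It was at 44.9, 132 and 153 FPKM in S leaves and also at 0 in CK leaves, and its annotation rose as a whole, by 1.91 ± 0.30. MS.gene50709 (chromosome 4.3, 33845252 to 33847945), 1 of 4 fructose bisphosphate aldolase models, was at 6.84, 0.62 and 3.23 FPKM in SM leaves and 0 in M leaves (adjusted p = 0.0468), and MS.gene017435 (chromosome 5.1, 61455479 to 61460586), a sister chromatid cohesion protein, at 5.33, 7.12 and 1.17 FPKM in SM leaves and 0 in M leaves (adjusted p = 0.046). The annotations of both rose too, and each model call held in 1 of 6 leave-one-out fits.

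In the other direction MS.gene49918 (chromosome 6.4, 58858802 to 58859414), 1 of 13 models of cell number regulator 9, was at 0 in SM leaves and at 35.9, 142 and 15.1 FPKM in M leaves (adjusted p = 0.046, kept in 1 of 6 leave-one-out fits), in the direction of its annotation. Other models at 0 in SM leaves stood beside sums that did not pass. MS.gene34383 (chromosome 1.2, 76580528 to 76582110), 1 of 3 models of 1,2-dihydroxy-3-keto-5-methylthiopentene dioxygenase 1, an enzyme that recycles methionine, was at 0 in SM leaves and at 27.1, 26.1 and 17.7 FPKM in M leaves (adjusted p = 0.0080). The sum of its 3 models was 0.40 (adjusted p = 0.512). MS.gene016888 (chromosome 5.2, 74784137 to 74790734), 1 of 4 models of the SnRK1 regulatory subunit beta-1, was at 0 in SM leaves and at 12.1, 2.89 and 16.8 FPKM in M leaves (adjusted p = 0.0194), with a sum of -0.92 (adjusted p = 0.156), and lost its call without M replicate 1. MS.gene056902 (chromosome 4.2, 40124320 to 40127076), 1 of 4 aldehyde dehydrogenase 3F1 models, was at 0 in SM leaves and at 8.62, 8.0 and 2.97 FPKM in M leaves (adjusted p = 0.0394, lost whichever library was left out), with a sum of -0.22. So a model at 0 in a whole group did not always go with a change of its annotation, and how the reads of near-identical copies were shared out in these libraries was not tested.

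The difference between the salt effects was called for 14 gene models (0.0275% of 50931), and 13 of them had 3 counts or fewer in every library of at least 1 of the 4 groups. In 7 of the 14 SM vs M was called as well. The one with counts in all groups was MS.gene23547 (chromosome 8.4, 61520093 to 61522147), 1 of 12 models of a putative 4-hydroxy-tetrahydrodipicolinate synthase of lysine synthesis, with 11, 9.03 and 10.1 FPKM in SM leaves, against 3.99, 3.53 and 2.42 FPKM in M leaves, and 4.87, 4.09 and 5.06 FPKM in S leaves, against 14, 16.8 and 15.2 FPKM in CK leaves (difference 3.31 ± 0.41, adjusted p = 0.0434). SM and CK leaves were both high and M and S leaves both low. The sum over the 12 models gave a difference of 0.01 (adjusted p = 0.9999). None of the 14 annotation sums passed for the difference. Without 1 of the 12 libraries the test called between 13 and 58 gene models, most without CK replicate 1 and fewest without CK replicate 2, with 33 without S replicate 1, 36 without SM replicate 3, 27 without SM replicate 2, and 25 without M replicate 3.

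**Figure D5:**
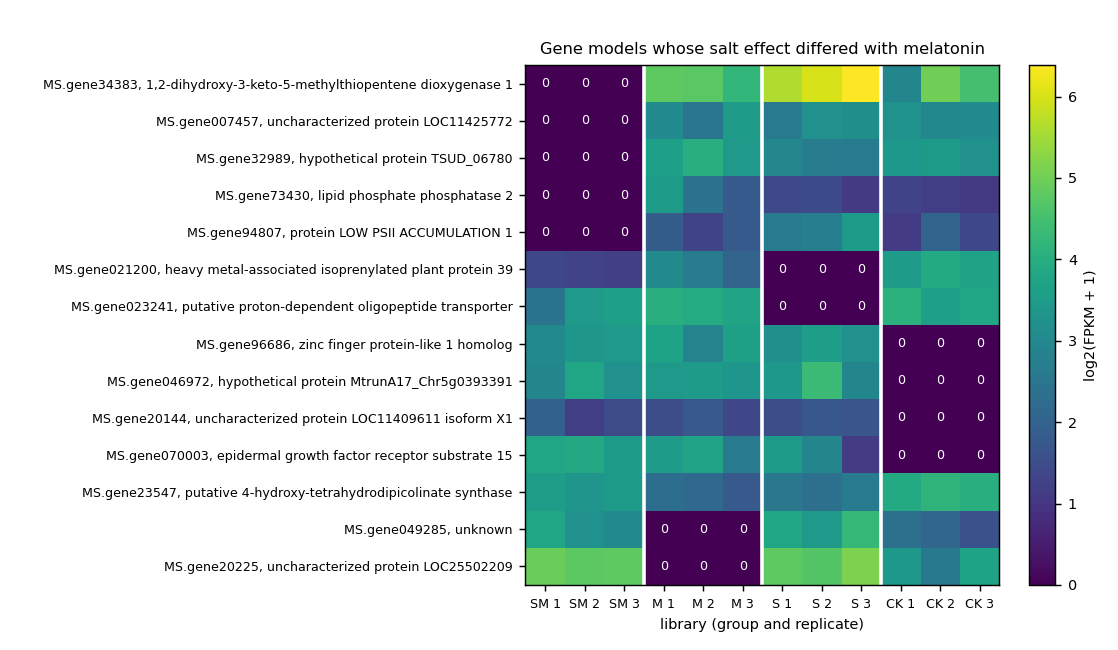
Level of the 14 gene models whose salt effect differed with melatonin, as log2(FPKM + 1) by colour, in the 12 libraries (columns, by group and replicate), with 0 written where no count was estimated. Blocks of 3 zeros fill the SM group for 5 models, the M group for 2, the S group for 2 and the CK group for 4.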

How the data were processed

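Leaf RNA of 12 libraries was analysed (SM, M, S, and CK, 3 each), grouped by their titles. Per the labels and the study's methods, the authors trimmed reads with cutadapt, aligned them with HISAT2 2.0.4, and assembled them with StringTie. How the estimated counts were made and the genome build are not given in the sources used here. The authors deposited 1 table with estimated counts, which are whole numbers and not normalized, and FPKM per gene model, where 0.0001 stands for 0 and was read as 0. Models with the same description were summed, and 1788 without a description were left out of the sums. Because reads of near-identical copies may be split or shared among models, single models are the less certain level.

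Features with a mean of at least 1 FPKM were tested with edgeR 4.0.16 in R 4.3.3 (TMM, quasi-likelihood, 1 fit over 12 libraries), for SM against M, S against CK, and the difference of both. P-values were adjusted over all features by Benjamini-Hochberg. The standard error is the size of the log2 fold change divided by the square root of F and restates the test. Where all libraries of a group stayed at or under 3 counts, a fold is a bound against 3 counts per library. Alternatives were DESeq2 1.42.0, other scalings and filters, a replicate block, the study's thresholds, and leaving out each library. Scripts were tested on simulated data. Nothing says whether the replicates of a group were separate plants or pools, so p-values measure the spread between these libraries.

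The annotations named were the 12 largest rises and 12 largest falls among those called with a mean of at least 5 FPKM and an informative description, up to 4 called members of each list by smallest p with its most abundant member, the 5 largest rises and falls among called gene models without overlap, and the 8 annotations with the smallest p for the difference. Ferredoxins, their reductases, and the oligonucleotide targets were added after their values were seen. The comparison and the lists, which come from the pathway column (annotations with at least 0.5 of their models in a pathway) or from words of the description, were chosen with earlier results of these data known. Oligonucleotide sequences come from the study's supplementary table. One item that the rule names is not reported here.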

Additional observations from a re-analysis of the deposited data

Results flagged for a closer look

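The salt effect differed between leaves with and without melatonin for 14 gene models by the test of the difference, (SM − M) − (S − CK), on the log2 scale, and each is given here by that difference. Where a whole group had no or almost no counts, the size of the fitted difference depends on the prior count and only its sign can be read. With counts in every group, the salt effect differed for MS.gene23547 (putative 4-hydroxy-tetrahydrodipicolinate synthase) by 3.31. With at most 3 counts in every CK library, the difference was called for MS.gene96686 (zinc finger protein-like 1 homolog) by -12.38, MS.gene046972 (hypothetical protein MtrunA17_Chr5g0393391) by -13.78, MS.gene20144 (uncharacterized protein LOC11409611 isoform X1) by -12.07 and MS.gene070003 (epidermal growth factor receptor substrate 15) by -12.93. With at most 3 counts in every M library, the difference was called for MS.gene20225 (uncharacterized protein LOC25502209) by 11.07 and MS.gene049285 (unknown) by 9.07. With at most 3 counts in every S library, the difference was called for MS.gene023241 (putative proton-dependent oligopeptide transporter family, major facilitator superfamily) by 12.82 and MS.gene021200 (heavy metal-associated isoprenylated plant protein 39) by 9.22. With at most 3 counts in every SM library, the difference was called for MS.gene007457 (uncharacterized protein LOC11425772) by -12.48, MS.gene32989 (hypothetical protein TSUD_06780) by -10.89, MS.gene34383 (1,2-dihydroxy-3-keto-5-methylthiopentene dioxygenase 1) by -14.42, MS.gene94807 (protein LOW PSII ACCUMULATION 1, chloroplastic) by -11.97 and MS.gene73430 (lipid phosphate phosphatase 2) by -11.64. None of the annotation sums of these models was called for the difference. How the authors' counting shared reads among near-identical models was not tested.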

How the results depend on the processing

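All 1076 called annotation sums and all 127 called gene models kept their direction under every alternative run. The SM and M libraries did not overlap for 1070 of these sums and for all 127 models. A kept direction was therefore nearly fixed by the call and adds little. Calls were less stable, with 27.6% of the sums kept without SM replicate 1 and 0 of the models with a replicate block. The number of annotation sums called in SM vs M, 1076, was 2398 with DESeq2 on the 6 libraries (1074 of the 1076 among them), 653 with edgeR on the 6 libraries, and 2158 by the study's thresholds. DESeq2's size factors (1077), upper-quartile scaling (1055), robust estimation (1062), filterByExpr (914), and no filter (820) stayed within a factor of 1.5. For gene models, 127 became 3583 with DESeq2 on the 6 libraries, 2 with edgeR on the 6 libraries, 54 with no filter, 62 with filterByExpr, and 5977 by the study's thresholds. Leaving out 1 library gave 306 to 743 annotation sums and 37 to 92 gene models. For S vs CK (1885 calls) it gave 1071 (without CK replicate 3) to 1697, with 1096 without S replicate 3 and 1168 without CK replicate 2. For the difference between the salt effects it gave 0 to 2 annotation sums against 0, and 13 to 58 gene models against 14. Among the named genes, 2601 of the values under an alternative stayed on their side of the threshold, 448 no longer passed, 17 newly passed, and no called value changed sign. Over gene models the antenna list had 2 of 67 higher and 0 lower, and the ERF and DREB list 0 and 1 of 146.

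Replicate numbers were not shown to pair the libraries. By the study's methods the experiment was repeated 3 times, and whether the numbers mark these repeats is not given. Correlations among 3 libraries per group cannot decide it. Deviations of same-numbered SM and M libraries correlated at 0.10, 0.01, and 0.01, and SM replicate 2 correlated best with M replicate 2, SM replicate 1 with M replicate 1, and SM replicate 3 with M replicate 2. A replicate block gave 650 annotation sums and 0 gene models in SM vs M, 1425 annotation sums in S vs CK, and 0 annotation sums and 0 gene models for the difference. With 3 libraries per group, a change that did not pass cannot be told from one too small for the spread, and an exact permutation test of 3 against 3 cannot go below 0.1. A gene without counts in a library may have had a level of up to 3 counts there.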

Other observations

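Translation genes gave few calls. Of 286 ribosome annotations 2 rose and 0 fell (0.699% higher, against 3.05% of all annotations, median 0.0). The most abundant, 40S ribosomal protein S29, had 1330.4, 1339.5 and 1246 FPKM in SM leaves, against 1335, 1595 and 1125 FPKM in M leaves, with overlapping groups. None of 37 plastid ribosomal protein annotations passed in edgeR's test, 1 had an unadjusted p below 0.05, and DESeq2 called 1 higher. Rubisco activase 2, which reactivates Rubisco, had 739, 1254 and 1566 FPKM in SM leaves, against 404, 467 and 349 FPKM in M leaves (log2 fold change 1.53 ± 0.39, adjusted p = 0.0399). Chaperones and heat stress factors gave 1 rise and 1 fall among 55 (1.82% each, against 3.05% and 3.94% of all annotations). ClpB3, a chloroplast chaperone that resolves protein aggregates, had 43.5, 43.9 and 21.4 FPKM in SM leaves, against 10.2, 10.8 and 5.55 FPKM in M leaves (log2 fold change 2.03 ± 0.41, adjusted p = 0.0183), and heat stress transcription factor A-4c had 17.6, 25.1 and 28.6 FPKM in SM leaves, against 54, 64.3 and 56.2 FPKM in M leaves (log2 fold change -1.33 ± 0.20, adjusted p = 0.00575).

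Other transcription factor families held few calls, and over all annotations 3.05% were higher and 3.94% lower. Of 26 NAC annotations 2 rose and 2 fell (7.69% each). Their median was -0.43, with 19 below 0, and DESeq2 called 2 higher and 6 lower. NAC domain-containing protein 72, known as RD26 in Arabidopsis and induced by drought and ABA there, had 93.6, 103 and 86 FPKM in SM leaves, against 36.2, 59.6 and 50.8 FPKM in M leaves (log2 fold change 0.91 ± 0.21, adjusted p = 0.0286, kept in 2 of 6 leave-one-out fits). Of 37 MYB annotations 2 rose and 1 fell (5.41% and 2.7%). MYB48 had 84.7, 153 and 100.5 FPKM in SM leaves, against 35.3, 17 and 26.2 FPKM in M leaves (log2 fold change 2.05 ± 0.36, adjusted p = 0.0113). MYB44, which is induced by ABA and stress in Arabidopsis, had 192, 219 and 235 FPKM in SM leaves, against 445, 349 and 415 FPKM in M leaves (log2 fold change -0.93 ± 0.19, adjusted p = 0.0168, kept in 4 of 6). Of 25 homeobox-leucine zipper annotations 2 rose and 1 fell (8% and 4%). ATHB-54 had 0.129, 0 and 0 FPKM in SM leaves, against 4.78, 11.5 and 14.7 FPKM in M leaves, with SM counts in replicate 1 alone (adjusted p = 0.0164, lost without SM replicate 2). Of 19 GRAS annotations 1 rose and 0 fell (5.26% higher).

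Lipid and transport lists held few calls, beside 3.05% higher and 3.94% lower over all annotations. In fatty acid elongation 1 of 21 annotations fell. It was 3-ketoacyl-CoA synthase 11, which lengthens acyl chains for waxes, with 28.5, 30.2 and 43.6 FPKM in SM leaves, against 138, 199.8 and 78.8 FPKM in M leaves (log2 fold change -2.11 ± 0.40, adjusted p = 0.0144, kept in 4 of 6 leave-one-out fits). None of 14 cutin, suberine, and wax annotations passed in edgeR's test (4 at an unadjusted p below 0.05, with DESeq2 calling 1 higher and 3 lower), and none of 8 lipid-transfer proteins (2 at an unadjusted p below 0.05, DESeq2 1 higher and 1 lower). In alpha-linolenic acid metabolism 2 of 40 rose and none fell, in nitrogen metabolism 1 of 27 rose and none fell, and in glutathione metabolism 5 of 79 rose and 2 fell. Of 68 ABC transporter annotations 3 rose and 5 fell. ABC transporter G family member 1 had 5.57, 6.28 and 4.88 FPKM in SM leaves, against 27.2, 25.8 and 14.5 FPKM in M leaves (log2 fold change -2.02 ± 0.30, adjusted p = 0.00575). G family member 36, known in Arabidopsis as PEN3 and needed for resistance to non-adapted fungi, had 113, 134 and 130.1 FPKM in SM leaves, against 338, 636 and 306 FPKM in M leaves (log2 fold change -1.78 ± 0.34, adjusted p = 0.0152, kept in 4 of 6). Among markers of dividing cells 2 of 24 fell and none rose. Probable histone H2A.2 had 271, 217 and 224 FPKM in SM leaves, against 586, 393 and 417 FPKM in M leaves (log2 fold change -1.01 ± 0.21, adjusted p = 0.020, kept in 3 of 6), and the other, a core histone annotation, was at 0 in SM leaves and at 2.99, 8.63 and 1.45 FPKM in M leaves. Of 7 senescence markers 1 fell (14.3%), senescence-associated carboxylesterase 101 (SAG101), a partner of PAD4 in immunity. SAG101 had 27.9, 31.5 and 28.6 FPKM in SM leaves, against 47.5, 69.6 and 29.6 FPKM in M leaves (log2 fold change -0.96 ± 0.20, adjusted p = 0.0185, kept in 2 of 6). The groups overlapped in FPKM, with M replicate 3 below SM replicate 2.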
